A study of Mus musculus with 3 samples.

Results

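The miRNAs described are those of 6 mouse precursors whose products are studied for their part in lipid and glucose handling: Mir33, Mir378a, Mir103-1, Mir103-2, Mir107 and Mir802. Their members were chosen by precursor name, with both arms of each hairpin. Because Mir103-1 and Mir103-2 give the same 3p product, the 6 precursors make 11 distinct arms of the 421 miRNA arms counted in the series. The libraries were made from liver RNA of 18 to 30 nt from C57BL/6 mice, taken 4 weeks after the mice were injected with an adeno-associated virus vector (scAAV9, self-complementary genome). The mock group received a vector with no decoy. The other groups received scAAV9-TuD-miR-122 or scAAV9-TuD-let-7. A Tough Decoy (TuD) is a transcribed RNA hairpin that holds out binding sites to sequester 1 miRNA or a family that shares a seed. All 3 groups carried the vector, and each was 1 library. The number of animals behind a library, and the promoter of the decoy, were not given in the sources used here. With no replicate, no difference has a test, and the 95% intervals below cover counting error only.

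An animal miRNA is cut as a short duplex from a hairpin precursor. One arm is usually kept in an Argonaute protein, where its seed, bases 2 to 8 from the 5′ end, pairs with target mRNAs, and the other arm is mostly lost. miR-33 lies within the gene of a sterol-responsive transcription factor and represses the cholesterol exporter Abca1. miR-378a lies within Ppargc1b, a gene for a transcriptional coactivator of mitochondrial metabolism, and is studied in mitochondrial and fatty acid metabolism. miR-103 and miR-107 lie within pantothenate kinase genes, whose enzymes start coenzyme A synthesis, and they are known as negative regulators of insulin sensitivity. miR-802 is known for its rise in the liver of obese mice and for its effect on glucose tolerance. miR-122, the target of the first decoy, is the most abundant miRNA of hepatocytes, and its inhibition lowers blood cholesterol.

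In the GRCm38 annotation, Mir33 was on the + strand at chr15:82198122-82198190, in an intron of Srebf2 on the same strand. Mir378a was in an intron of Ppargc1b, on the same strand. Mir103-1 was on the + strand at chr11:35782396-35782481, in an intron of Pank3, and Mir103-2 was on the + strand at chr2:131288052-131288137, in an intron of Pank2. Mir107 was on the - strand at chr19:34820687-34820773, in an intron of Pank1. Mir802 was on the + strand at chr16:93369720-93369816 and was the member precursor with no overlapping gene. These annotated coordinates were not used to place reads.

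The mature sequences below are from RefSeq (GRCm38.p6), with the seed in capitals, and are shown because the levels, seeds and 3′ ends described later refer to them.
mmu-miR-33-5p: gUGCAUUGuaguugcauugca
mmu-miR-33-3p: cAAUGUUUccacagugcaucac
mmu-miR-103-3p: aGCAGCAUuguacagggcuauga
mmu-miR-107-3p: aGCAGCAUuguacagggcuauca
mmu-miR-103-1-5p: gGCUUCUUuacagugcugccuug
mmu-miR-103-2-5p: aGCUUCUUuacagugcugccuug
mmu-miR-107-5p: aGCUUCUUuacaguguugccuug
mmu-miR-802-5p: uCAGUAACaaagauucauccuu
mmu-miR-802-3p: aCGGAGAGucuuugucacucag
miR-103-3p and miR-107-3p share their seed and differ by G22C (base of miR-103-3p first; position 1 is the 5′ base). Reads of these arms with a matching part under 22 nt therefore cannot be told apart. The 5p arms of Mir103-1, Mir103-2 and Mir107 also share a seed with one another. The arms of Mir33 and of Mir802 each have a seed that no other printed member has.

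The hairpins of Mir33 and Mir802 (RefSeq, GRCm38.p6, + strand) are shown with both arms in capitals, because their arms are compared with each other below.
Mir33 hairpin: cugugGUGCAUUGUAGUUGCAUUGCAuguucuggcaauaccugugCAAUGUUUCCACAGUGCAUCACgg
Mir802 hairpin: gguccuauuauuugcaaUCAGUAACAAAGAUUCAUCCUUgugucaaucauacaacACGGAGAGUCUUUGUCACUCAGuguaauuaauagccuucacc

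In the order mock, TuD-miR-122, TuD-let-7, the libraries held 3450317, 3681585 and 2066892 reads, of which 78.5%, 72.0% and 73.1% were assigned to miRNA arms. Levels are RPM values computed over non-target reads, the miRNA reads left when those of miR-122 and of the let-7 family (with miR-98) are set aside. These numbered 1377810, 1452492 and 487707. One read is thus worth 0.726, 0.688 and 2.05 RPM, and the floor of 3 reads is 2.18, 2.07 and 6.15 RPM. The non-target share was lowest in TuD-let-7, so scaling to all reads lowers every ratio of TuD-let-7 to mock by the same factor. TuD-let-7 also stood apart by a higher share of reads with a substituted base, described after the members' levels. The median log2 ratio over all tested arms moved from -0.02 to -0.78 with that scaling, and from -0.02 to -0.04 for TuD-miR-122.

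Marker miRNAs of other cell types differed between the libraries, and their part in the members' values was not tested. All 5 skeletal muscle miRNAs listed (miR-1a-3p, miR-133a-3p, miR-133a-5p, miR-133b-3p and miR-206-3p) were lower in both decoy libraries by the rule given below. Their summed level was 10601 RPM in mock, 994 RPM in TuD-miR-122 and 226 RPM in TuD-let-7, where miR-133a-5p had 0 reads. All 4 pancreas miRNAs were higher in TuD-miR-122, with a summed level of 119 RPM in mock, 1612 RPM in TuD-miR-122 and 162 RPM in TuD-let-7. Of 6 kidney and gut epithelial miRNAs, 2 were higher in TuD-miR-122, and the summed levels were 4679, 6983 and 3680 RPM in the order mock, TuD-miR-122, TuD-let-7. Of the 4 adipose and 5 leukocyte miRNAs tested, 0 passed the rule. The hepatocyte list was abundant in all 3 libraries, with 1020044, 864036 and 976412 reads of miR-122-5p, while miR-885-5p of that list was not measured. Of its 5 tested members, 1 passed the rule, namely miR-122-5p, higher in TuD-let-7 at 2.70. The scale leaves out miR-122 itself, and over all reads that ratio was 1.60, not past the rule. miR-122-5p is also the target of a decoy. The other measured hepatocyte members were miR-192-5p, miR-194-5p, miR-101b-3p and miR-148a-3p. Their ratios to mock were 0.800, 0.865, 0.941 and 0.818 in TuD-miR-122, and 1.02, 1.35, 1.22 and 0.864 in TuD-let-7. Over all tested arms, 13.7% were higher and 4.85% lower in TuD-miR-122, against 3.63% higher and 4.15% lower in TuD-let-7. Scaled to all reads, 4 of the 5 leukocyte and 2 of the 6 kidney and gut miRNAs were lower in TuD-let-7, where 19.7% of all tested arms were. With the same scaling, 1 of the 6 rather than 2 was higher in TuD-miR-122. In bulk liver RNA, fewer cells of a type and less RNA per cell cannot be told apart.

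Among the member arms, miR-378a-3p was the most abundant in every library and ranked 19th, 19th and 14th of 401 non-target arms, in the order mock, TuD-miR-122, TuD-let-7. miR-103-3p ranked 32nd, 32nd and 22nd, and miR-107-3p 49th, 67th and 44th. miR-802-5p ranked 66th in mock, 88th in TuD-miR-122 and 136th in TuD-let-7. miR-33-5p ranked 151st in mock and 152nd in TuD-miR-122, and higher in TuD-let-7. The intervals of these 5 arms did not overlap one another within a library, with the order miR-378a-3p, miR-103-3p, miR-107-3p, miR-802-5p, miR-33-5p in TuD-miR-122 as well as mock. The last pair changed places in TuD-let-7, so that miR-802-5p stood below miR-33-5p.

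**Figure D1:**
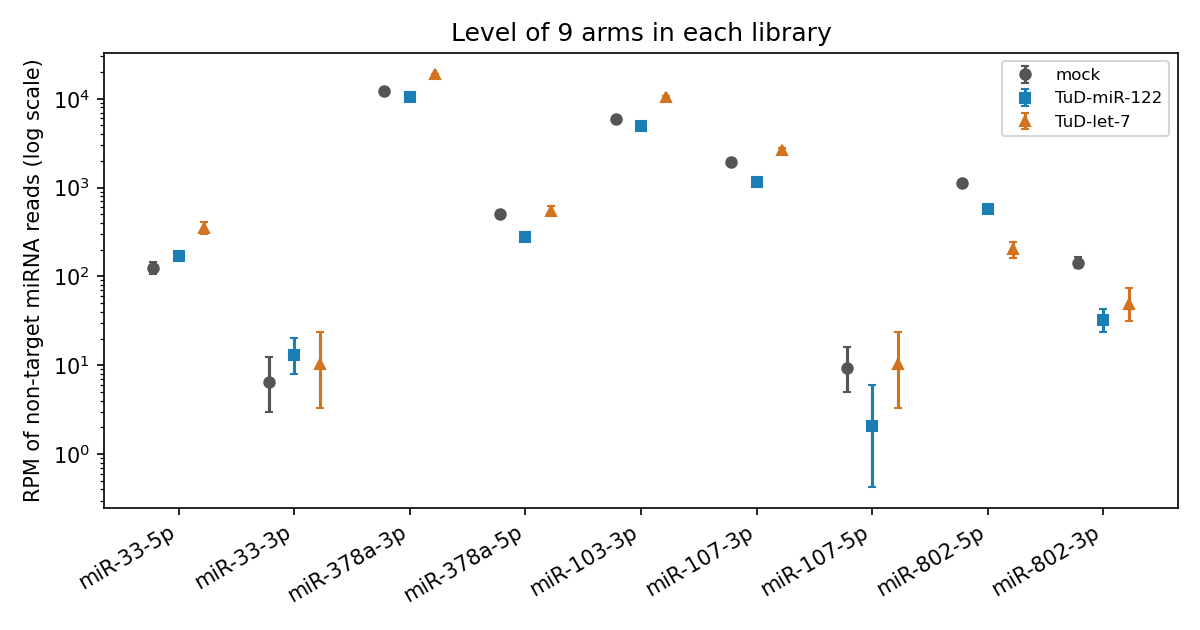
Level of 9 member arms (RPM of non-target miRNA reads, log scale) in each of the 3 libraries; points are single libraries and bars are exact 95% Poisson intervals of counting error. The points of miR-33-5p go up from mock to TuD-let-7 (125, 170 and 353 RPM), and those of miR-802-5p go down (1131, 575 and 201 RPM).

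An arm passed the 2-fold rule when the whole interval of its level ratio was above 2 or under 0.5 and the libraries compared held at least 100 reads of it together. Of the 11 member arms, 7 had enough reads in each comparison. In TuD-miR-122 against mock, 0 of the 7 were higher and 1, miR-802-3p, was lower. Over all 227 non-target arms tested there, 13.7% were higher and 4.85% were lower. The members' median ratio was 0.596, against 0.985 over all tested arms, and 6 of the 7 were below 1. The 7 are not separate observations, since they include both arms of Mir378a and of Mir802. Of the 5 tested hepatocyte miRNAs listed above, 0 were above 1 and 5 below in this comparison, with a median of 0.818. In TuD-let-7 against mock, 1 member was higher (miR-33-5p) and 1 was lower (miR-802-5p), while 3.63% of the 193 tested arms were higher and 4.15% were lower. The members' median ratio was 1.36 against 0.983 for all tested arms, with 5 members above 1 and 2 below. Of the 5 hepatocyte miRNAs, 4 were above 1 and 1 below, with a median of 1.22. With scaling to all reads, 2 members were above 1 and 5 below, miR-33-5p no longer passed the rule, and miR-802-3p passed it beside miR-802-5p. By that scaling 2.07% of the tested arms were higher and 19.7% were lower. The 2 comparisons share the mock library.

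**Figure D2:**
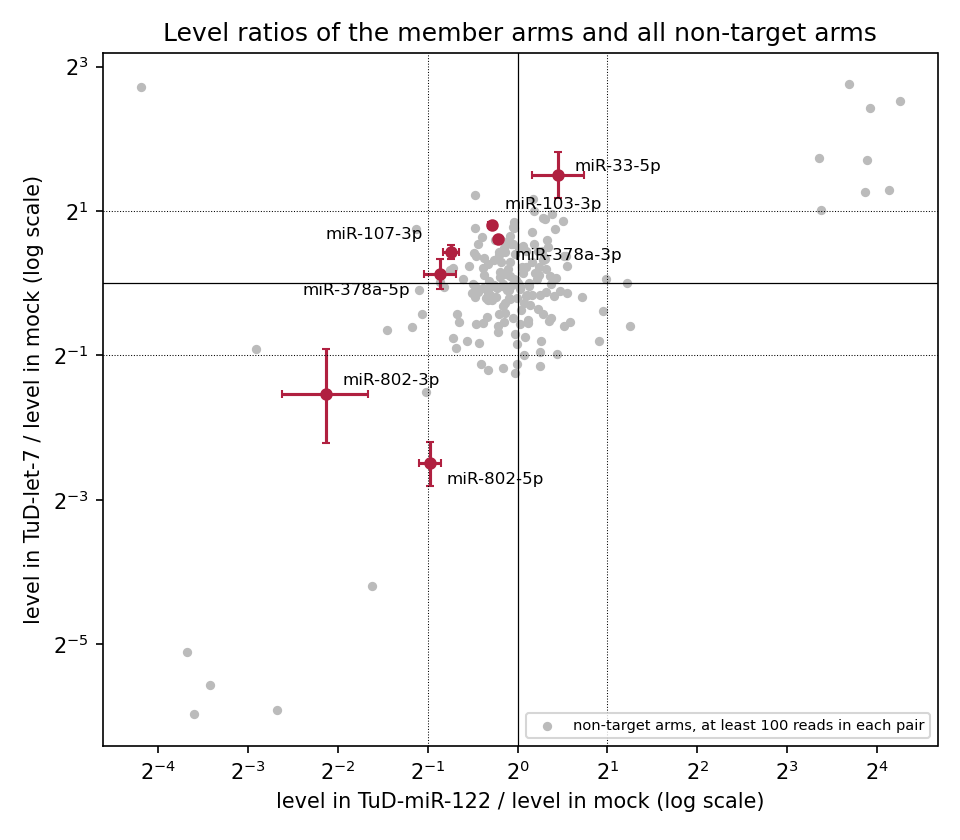
Level ratio to mock in TuD-miR-122 (x axis) and TuD-let-7 (y axis), both on log scales; grey points are 192 non-target arms with at least 100 reads in each pair and a read in every library, red points are the 7 tested members with their 95% counting intervals, and dotted lines mark ratios of 0.5 and 2. Both axes share mock. The arms of Mir802 are the members in the lower left, and miR-33-5p lies above the upper dotted line with its interval.

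miR-33-5p, the arm of Mir33 that acts on the cholesterol exporter, was sequenced 172 times in mock, 247 times in TuD-miR-122 and 172 times in TuD-let-7. These counts are levels of 125 RPM (106.9 to 145), 170 RPM (150 to 193) and 353 RPM (302 to 409). The 3 intervals did not overlap, and TuD-let-7 was the highest. The ratio to mock was 1.36 (1.12 to 1.66) in TuD-miR-122 and 2.83 (2.27 to 3.51) in TuD-let-7. Since the read counts of mock and TuD-let-7 were equal, the second ratio is the ratio of their non-target totals. Scaled to all reads, it was 1.67 (1.34 to 2.07), above 1 and not past the rule. The opposite arm, miR-33-3p, had 9, 19 and 5 reads, or 6.53 RPM (2.99 to 12.4), 13.1 RPM (7.88 to 20.4) and 10.3 RPM (3.33 to 23.9), and these intervals overlapped. There were 19.1 reads of the 5p arm per read of the 3p arm in mock (9.84 to 42.5), 13.0 in TuD-miR-122 (8.15 to 21.96) and 34.4 in TuD-let-7 (14.5 to 107.3). A difference in the use of the arms of Mir33 was not detectable at this depth.

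Nearly all untailed miR-33-5p reads began at the RefSeq 5′ end, namely 100% in mock and in TuD-let-7 against 98.9% in TuD-miR-122, so the seed printed above is the one these reads carry. A tail here means up to 5 nt at the 3′ end that do not match the precursor. Tailed reads made up 25% of miR-33-5p in mock (18.7% to 32.2%), 23.9% in TuD-miR-122 (18.7% to 29.7%) and 31.4% in TuD-let-7 (24.5% to 38.9%), with overlapping intervals. Tails of A alone were on 11.0% of reads in mock, 13.0% of reads in TuD-miR-122 and 9.30% of reads in TuD-let-7. Tails neither of A alone nor of T alone were on 13.4%, 7.69% and 20.9%. The leading inserts, with the tail in capitals, were the unmodified form, the form with 1 added A, and a form that ends in an unmatched C.
miR-33-5p, unmodified: gtgcattgtagttgcattgca
miR-33-5p, A added: gtgcattgtagttgcattgcaA
miR-33-5p, C at the end: gtgcattgtagttgcattgcC
The unmodified insert had 120, 181 and 116 reads in the order mock, TuD-miR-122, TuD-let-7, and the A-tailed insert 11, 20 and 11 reads. The insert that ends in C had 6, 4 and 21 reads, or 3.49%, 1.62% and 12.2% of the arm. Such a read counts both as tailed and as trimmed (a matching part under 21 nt). It has the length of the unmodified insert, with C in place of the last A. Whether the C is a tail or a substituted base, of the kind described below, was not tested. The trimmed share was 14.0%, 12.6% and 21.5%, but untailed trimmed reads numbered 4, 4 and 0.

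miR-802-5p, the arm linked to glucose tolerance, had 1558 reads in mock, 835 reads in TuD-miR-122 and 98 reads in TuD-let-7. Its levels were 1131 RPM (1075 to 1188), 575 RPM (537 to 615) and 201 RPM (163 to 245). The intervals did not overlap, and both decoy libraries were below mock. The ratio to mock was 0.508 (0.467 to 0.553) in TuD-miR-122, which did not pass the rule, and 0.178 (0.143 to 0.218) in TuD-let-7, which did. Scaled to all reads, these were 0.502 and 0.105. The ratio of TuD-let-7 to TuD-miR-122 was 0.350 (0.281 to 0.431).

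Its opposite arm, miR-802-3p, had 196, 47 and 24 reads, or 142.3 RPM (123 to 164), 32.4 RPM (23.8 to 43.0) and 49.2 RPM (31.5 to 73.2). Both decoy libraries were below mock and their intervals overlapped each other. The ratio to mock was 0.227 (0.162 to 0.314) in TuD-miR-122, past the rule, and 0.346 (0.216 to 0.530) in TuD-let-7, not past it. Scaled to all reads, the latter was 0.204 (0.128 to 0.313), past the rule. The arm with the smaller ratio to mock was thus not the same in each comparison: miR-802-3p in TuD-miR-122, and miR-802-5p in TuD-let-7. In TuD-let-7 the intervals of these ratios overlapped (0.143 to 0.218 for miR-802-5p and 0.216 to 0.530 for miR-802-3p).

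The ratio of arms within a library does not depend on the scaling. There were 7.95 reads of miR-802-5p per read of miR-802-3p in mock (6.85 to 9.27), 17.8 in TuD-miR-122 (13.2 to 24.4) and 4.08 in TuD-let-7 (2.59 to 6.67). As a share of both arms, miR-802-3p was 11.2% (9.74% to 12.7%), 5.33% (3.94% to 7.02%) and 19.7% (13.0% to 27.8%). All 3 intervals stood apart. These counts leave out reads that start elsewhere, and the share of such starts on miR-802-3p differed between mock and TuD-miR-122, as described below. Mock and TuD-let-7 overlapped under a pair of other settings: with 1 internal mismatch allowed, the arm ratios were 8.12 (7.04 to 9.41) and 4.76 (3.07 to 7.65), and without inserts read once they were 8.45 (7.24 to 9.92) and 4.41 (2.75 to 7.36). Arm shares with non-overlapping intervals made up 19.3% of the precursors tested in TuD-miR-122 against mock (16 of 83), 21.3% in TuD-let-7 against mock (13 of 61) and 18.5% in TuD-let-7 against TuD-miR-122 (12 of 65). With the main settings, Mir802 was among them in all 3 comparisons and Mir378a in both against mock. Mir33 was tested against TuD-miR-122 and between the decoys, with overlapping intervals each time.

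**Figure D3:**
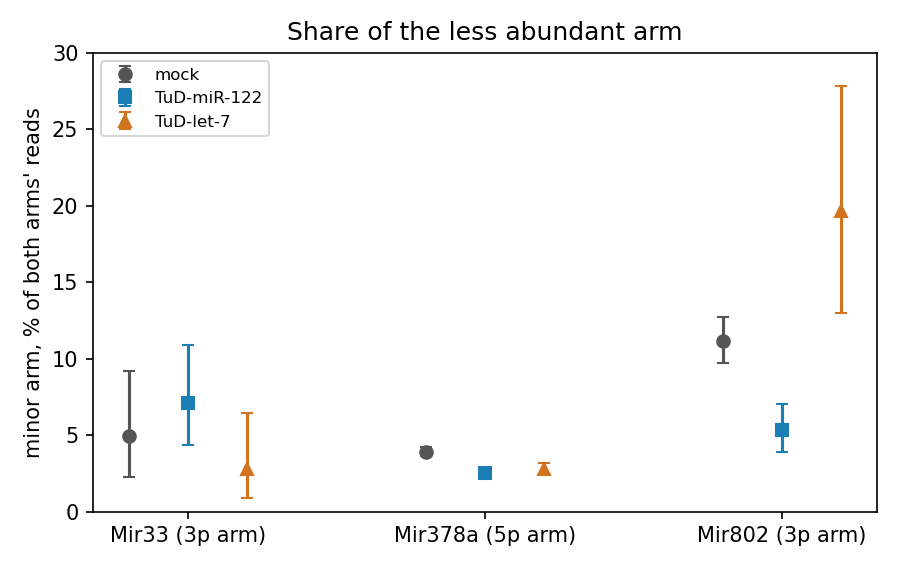
Reads of the less abundant arm as a percentage of both arms' reads for Mir33, Mir378a and Mir802 in each library; bars are exact 95% binomial intervals of counting error. For Mir802 the 3p share is highest in TuD-let-7 (19.7%) and lowest in TuD-miR-122 (5.33%), with mock at 11.2%, while the intervals of Mir33 overlap.

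The 5′ ends of miR-802-3p also varied. Among untailed reads, a start 1 nt downstream of the main start, which shifts the seed by a base, was found in 13 of 167 reads in mock (7.78%, 4.21% to 12.9%). The same start made up 16 of 56 reads in TuD-miR-122 (28.6%, 17.3% to 42.2%) and 5 of 23 in TuD-let-7 (21.7%, 7.46% to 43.7%). The interval of TuD-miR-122 stood above that of mock, and that of TuD-let-7 overlapped both. For comparison, the median arm had 98.5%, 98.1% and 98.1% of its untailed reads at the main start. With starts within 2 nt counted, the ratio of miR-802-3p in TuD-miR-122 to mock was 0.291 (0.217 to 0.386), still past the rule. The ratio of miR-802-5p was then 0.507 (0.468 to 0.550). The arms thus lay closer together than with the main start alone (0.227 and 0.508), with intervals still apart. For miR-802-5p, starts 1 nt downstream made up 8.31%, 8.52% and 3.23% of untailed reads.

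The leading inserts of Mir802 show heterogeneous 3′ ends on both arms, with the tail in capitals.
miR-802-5p, 23 nt: tcagtaacaaagattcatccttg
miR-802-5p, 22 nt: tcagtaacaaagattcatcctt
miR-802-5p, 21 nt: tcagtaacaaagattcatcct
miR-802-5p, 23 nt and A added: tcagtaacaaagattcatccttgA
miR-802-3p, 23 nt: acggagagtctttgtcactcagt
miR-802-3p, 21 nt: acggagagtctttgtcactca
The 23-nt form of miR-802-5p, 1 nt longer than the RefSeq entry, led in each library with 689, 353 and 45 reads (44.2%, 42.3% and 45.9% of the arm). The 22-nt form followed with 403, 248 and 30 reads, and the 21-nt form had 130 reads in mock (8.34%), 126 reads in TuD-miR-122 (15.1%) and 5 reads in TuD-let-7 (5.10%). The A-tailed 23-nt insert had 87 reads in mock (5.58%), 21 reads in TuD-miR-122 (2.51%) and 5 reads in TuD-let-7 (5.10%). Tailed reads in all were 13.3% of miR-802-5p in mock (11.6% to 15.1%), 6.95% in TuD-miR-122 (5.32% to 8.89%) and 9.18% in TuD-let-7 (4.29% to 16.7%). The interval of TuD-miR-122 lay below that of mock, and tails of A alone were 8.66% against 3.83%. The arm was too rare in the decoy libraries to be ranked among the arms with at least 1000 reads, whose median difference in tailed share between TuD-miR-122 and mock was -0.96 percentage points. On miR-802-3p the 23-nt form had 79, 16 and 10 reads and the 21-nt form 47, 14 and 4.

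miR-378a-3p, the member studied in mitochondrial metabolism, had 16885, 15286 and 9152 reads in the same order of libraries. These counts include the reads that match miR-378c equally well, which made up 17.2%, 17.8% and 24.02% of them. The levels were 12255 RPM (12071 to 12441), 10524 RPM (10358 to 10692) and 18765 RPM (18383 to 19154). TuD-let-7 was the highest and TuD-miR-122 the lowest, with no overlap. The ratio to mock was 0.859 (0.840 to 0.878) in TuD-miR-122 and 1.53 (1.49 to 1.57) in TuD-let-7, and neither passed the rule. The direction in TuD-let-7 depended on the scaling, since its ratio with all reads was 0.905 (0.882 to 0.928). Without the reads shared with miR-378c, which are all the reads with a matching part under 21 nt, the ratios were 0.852 and 1.40.

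The opposite arm, miR-378a-5p, had 688, 399 and 266 reads, or 499 RPM (463 to 538), 275 RPM (248 to 303) and 545 RPM (482 to 615). Its ratio was 0.550 (0.485 to 0.623) in TuD-miR-122. In TuD-let-7 it was 1.09 (0.945 to 1.26), and 0.645 with all reads as the scale. There were 24.5 reads of the 3p arm per read of the 5p arm in mock (22.7 to 26.5), 38.3 in TuD-miR-122 (34.7 to 42.4) and 34.4 in TuD-let-7 (30.5 to 39.0). The 5p share was 3.92% in mock (3.63% to 4.21%), 2.54% in TuD-miR-122 (2.30% to 2.80%) and 2.82% in TuD-let-7 (2.50% to 3.18%). Both decoy libraries were below mock, and their intervals overlapped each other.

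Of miR-378a-3p reads, 32.0% were tailed in mock, against 33.5% of those in TuD-miR-122 and 36.4% of those in TuD-let-7. Tails of A alone were 16.1%, 13.6% and 15.2%, and tails of T alone 8.77%, 9.51% and 8.78%, where T in a read stands for U in the RNA. The median arm with at least 1000 reads had 8.16%, 6.96% and 7.81% with A alone and 7.07%, 6.94% and 7.58% with T alone. The tailed share in TuD-let-7 was 4.37 points above mock, ranking 21st of 48 arms, whose median was 2.99 points. Trimmed reads of this arm are the reads that match miR-378c equally well, since the sequences first differ at base 21. They were 17.2%, 17.8% and 24.02%, and the difference of 6.85 points between TuD-let-7 and mock ranked 18th of 48, with a median of 3.04. This difference lay in trimmed reads that also had a tail, which were 6.06%, 8.88% and 13.5% of the arm. Reads with a substituted base near the 3′ end, described below, also count as such reads. In TuD-let-7, 379 reads matched 17 nt, and 289 reads had A18C, with C in place of A at base 18. In mock these numbers were 251 and 154. Of reads that matched 20 nt, 43.6% had a tail in TuD-let-7 and 18.5% in mock. The part of substitutions in the difference was not tested. Trimmed reads with no tail were 11.1% (10.6% to 11.6%), 8.94% (8.50% to 9.41%) and 10.5% (9.88% to 11.1%). By that count TuD-let-7 differed from mock by -0.60 points, beside a median of -0.56, and TuD-miR-122 by -2.16 points, which ranked 66th of 73 arms.

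miR-103-3p, the product of Mir103-1 and Mir103-2, had 8198, 7082 and 5052 reads of its own, and miR-107-3p had 2668, 1675 and 1280. A further 25.3%, 23.6% and 18.7% of the reads of the pair were too short to tell them apart. miR-103-3p stood at 5950 RPM (5822 to 6080) in mock, 4876 RPM (4763 to 4991) in TuD-miR-122 and 10359 RPM (10075 to 10648) in TuD-let-7. miR-107-3p stood at 1936 RPM (1864 to 2011), 1153 RPM (1099 to 1210) and 2625 RPM (2483 to 2772). Both were lowest in TuD-miR-122 and highest in TuD-let-7.

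The ratio to mock in TuD-miR-122 was 0.819 (0.794 to 0.846) for miR-103-3p and 0.596 (0.560 to 0.633) for miR-107-3p. In TuD-let-7 it was 1.74 (1.68 to 1.80) for miR-103-3p and 1.36 (1.27 to 1.45) for miR-107-3p, and none of the 4 ratios passed the rule. Scaled to all reads, miR-103-3p in TuD-let-7 was at 1.03 and miR-107-3p at 0.801, so that the direction of miR-107-3p depended on the scaling. For the pair with its shared reads, the ratio was 0.748 (0.730 to 0.767) in TuD-miR-122. In TuD-let-7 it was 1.51 (1.47 to 1.56), or 0.894 scaled to all reads.

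Within a library, reads that match at least 23 nt gave 4.25 reads of miR-103-3p per read of miR-107-3p in mock (4.04 to 4.48). The same ratio was 6.09 in TuD-miR-122 (5.71 to 6.50) and 5.50 in TuD-let-7 (5.12 to 5.92). Mock had the smallest ratio, apart from both decoy libraries. Reads that match at least 22 nt gave 3.07, 4.23 and 3.95, in the same order. The ratio moved with the length required because the 3′ ends of the miRNAs differed, as the leading inserts show (tail in capitals).
miR-103-3p, unmodified: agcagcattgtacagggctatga
miR-103-3p, T added: agcagcattgtacagggctatgaT
miR-103-3p, T after base 22: agcagcattgtacagggctatgT
miR-107-3p, unmodified: agcagcattgtacagggctatca
miR-107-3p, T added: agcagcattgtacagggctatcaT
miR-107-3p, T after base 22: agcagcattgtacagggctatcT

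The unmodified miR-103-3p insert had 5777, 5082 and 3763 reads, and that of miR-107-3p had 1466, 880 and 698. With T after base 22, miR-107-3p had 654, 461 and 316 reads (24.5%, 27.5% and 24.7% of its own reads), and miR-103-3p had 166, 153 and 93 (2.02%, 2.16% and 1.84%). With T added to the full 23 nt, the order was the opposite: 12.4%, 12.2% and 11.4% of miR-103-3p and 5.96%, 5.73% and 5.63% of miR-107-3p. Each order held in all 3 libraries. A matching part of exactly 22 nt was found in 32.7%, 36.1% and 32.4% of miR-107-3p reads, and 81.4%, 82.0% and 83.1% of those carried a tail of T alone. Of miR-103-3p reads, 6.83%, 8.01% and 5.80% matched exactly 22 nt.

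**Figure D4:**
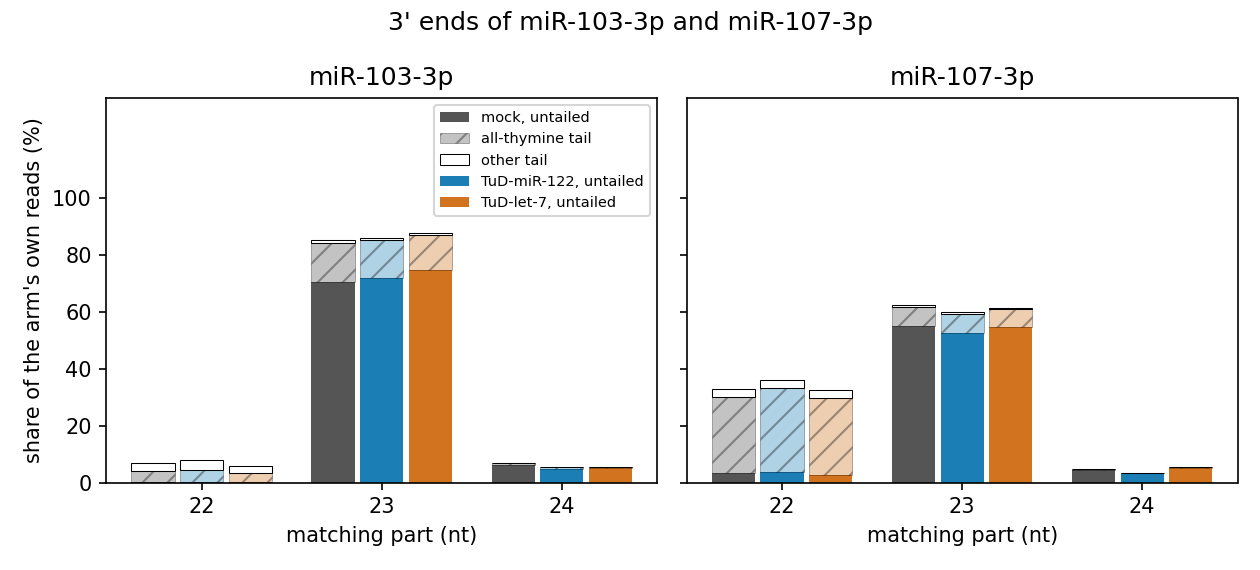
Share of each arm's own reads (%) by length of the matching part (22, 23 or 24 nt) for miR-103-3p and miR-107-3p; solid bars are untailed reads, hatched parts reads with a tail of T alone and white parts reads with another tail, coloured by library. At 22 nt, miR-107-3p holds 32.4% to 36.1% of its reads and miR-103-3p 5.80% to 8.01%, in all 3 libraries.

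In all, tails of T alone were on 33.5% of miR-107-3p reads in mock (31.8% to 35.4%), 36.3% in TuD-miR-122 (34.0% to 38.7%) and 33.4% in TuD-let-7 (30.8% to 36.0%). Among arms with at least 1000 reads, it ranked 5th of 80, 4th of 82 and 3rd of 49. miR-103-3p had 18.6%, 18.2% and 16.2%, ranking 18th, 18th and 14th. Tails of A alone were on 0.0366%, 0.0141% and 0.0792% of miR-103-3p reads and on 0.187%, 0.119% and 0.156% of miR-107-3p reads. An A added to the 22-nt or 23-nt form of either cannot be seen as a tail, since the precursors continue with A there. No read of either arm with a matching part of 22, 23 or 24 nt had a tail of A alone. The low shares of such tails are therefore no measure of A addition to these arms. The 24-nt form of miR-103-3p, which ends in an A that matches the precursor, had 501, 341 and 259 reads.
miR-103-3p, 24 nt: agcagcattgtacagggctatgaa

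For the pair with its shared reads, the tailed share was 33.9% in mock (33.1% to 34.7%), 32.1% in TuD-miR-122 (31.2% to 33.0%) and 28.1% in TuD-let-7 (27.1% to 29.1%). The difference of -5.80 points between TuD-let-7 and mock was the lowest of the 48 arms with at least 1000 reads in both, over which the median was 2.99 points. In TuD-miR-122 it was -1.81 points, ranking 49th of 73. Tails of T alone were 20.6%, 20.4% and 18.5% of the pair, and tails neither of A alone nor of T alone were 9.62%, 8.44% and 6.65%. Between TuD-let-7 and mock, tails of A alone differed by -0.78 points and tails of T alone by -2.06 points. These ranked 36th and 37th of the 48 arms, so neither kind was at the extreme. Substituted bases near the 3′ end, described below, also count as tails, and their part in the difference was not tested. Trimmed reads were 5.90%, 4.68% and 3.67%, of which most also had a tail. Trimmed reads with no tail were 1.16% (0.995% to 1.35%), 1.72% (1.49% to 1.97%) and 1.002% (0.793% to 1.25%), so that mock and TuD-let-7 overlapped.

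The 5p arms of these precursors were near the floor. miR-103-1-5p had 0 reads in every library, under the floor of 3 reads (2.18, 2.07 and 6.15 RPM), and the exact 95% Poisson upper limits were 2.68, 2.54 and 7.56 RPM. miR-103-2-5p had 4, 5 and 0 reads, and miR-107-5p had 13, 3 and 5. For miR-107-5p these are 9.44 RPM (5.02 to 16.1), 2.07 RPM (0.426 to 6.04) and 10.3 RPM (3.33 to 23.9), and there were 205, 558 and 256 reads of miR-107-3p per read of it, with overlapping intervals. Together with miR-33-3p, these were the members with too few reads for the 2-fold rule.

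A tail in these counts is any 3′ end that does not match, and single-base substitutions also occurred inside the reads. Among reads of 20 to 24 nt, 12.04% of miR-378a-3p reads in mock had 1 substituted base, against 12.4% of those in TuD-miR-122 and 32.0% of those in TuD-let-7. miR-103-3p had 11.6%, 10.6% and 19.5%, and miR-107-3p 10.6%, 10.9% and 21.8%. The median arm with at least 1000 such reads had 9.56%, 10.6% and 23.5%, so a higher share in TuD-let-7 was not particular to these arms. It was not seen in miR-33-5p, at 16.4% (10.9% to 23.3%), 13.4% (9.18% to 18.7%) and 16.3% (10.6% to 23.5%). miR-378a-5p had 8.47%, 16.6% and 19.6%, and miR-802-5p 10.8%, 10.3% and 17.8%. A substitution is written with the base of the arm first and its position from the 5′ end. In TuD-let-7, G11T was on 12.4% of miR-378a-3p reads, against 0.0604% of those in TuD-miR-122 and 0.0360% of those in mock. G10T was on 10.1% of miR-103-3p and 13.0% of miR-107-3p reads, against 0.774% and 1.06% in mock. A20C was on 3.52%, 1.70% and 1.25% of miR-103-3p reads, and A19C on 1.15%, 4.88% and 0.287% of miR-378a-3p reads, in the order mock, TuD-miR-122, TuD-let-7. Substitutions near the 3′ end are read as a trimmed read with a tail, and those further inside leave the read uncounted. With 1 internal mismatch allowed, the ratio of TuD-let-7 to mock was 1.71 for miR-378a-3p, 1.67 for miR-103-3p and 2.51 for miR-33-5p. The source of these substitutions was not tested.

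**Figure D5:**
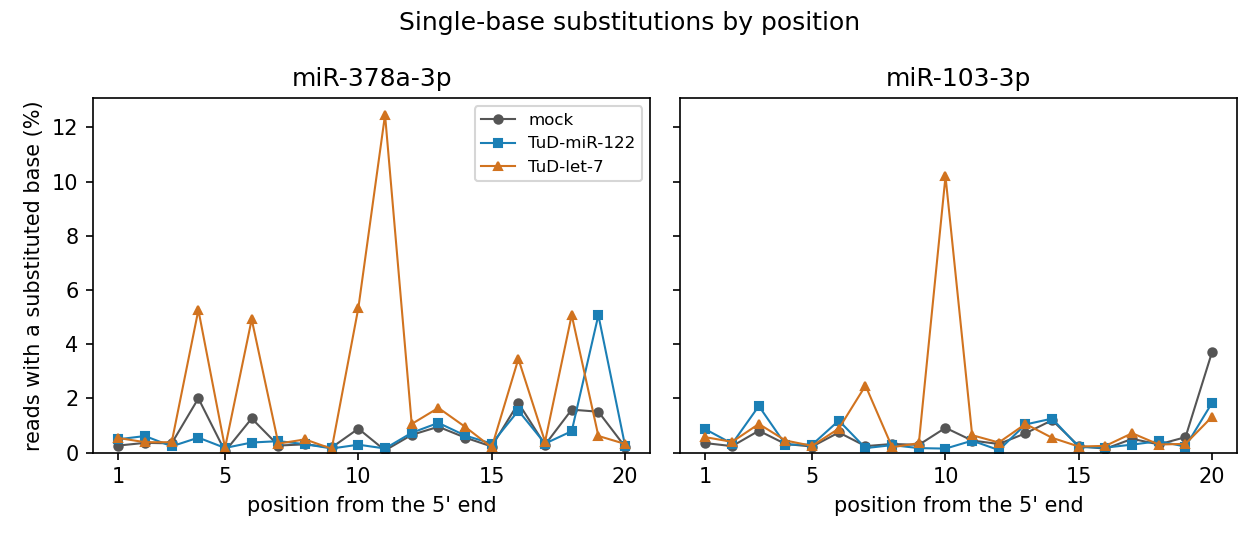
Percentage of miR-378a-3p and miR-103-3p reads of 20 to 24 nt with a substituted base at each position from the 5′ end, 1 line per library. TuD-let-7 peaks at position 11 of miR-378a-3p and at position 10 of miR-103-3p, mock is highest at position 20 of miR-103-3p, and TuD-miR-122 at position 19 of miR-378a-3p.

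Reads assigned to the paralogs of miR-378a were checked at the bases where the paralogs differ from it. miR-378d differs from miR-378a-3p by A6C and C22T, with the base of miR-378a-3p first. Reads assigned to miR-378d numbered 243 in mock, 14 for TuD-miR-122 and 565 for TuD-let-7, ratios to mock of 0.0547 (0.0294 to 0.0935) and 6.57 (5.64 to 7.67). Of the reads that reached base 22, however, 64 of 101 in mock, 4 of 7 in TuD-miR-122 and 202 of 274 in TuD-let-7 had the base of miR-378a-3p there, and 16, 2 and 25 had that of miR-378d. The substitution A6C was on 0.883%, 0.0504% and 4.57% of miR-378a-3p reads. Of reads counted as miR-378b-3p that reached base 20 of its own sequence, 99.1%, 99.0% and 96.7% had the base that miR-378a-3p has at the matching place. The sequence of miR-378b aligns to miR-378a-3p from its base 2, and 2.30%, 3.24% and 3.14% of untailed miR-378a-3p reads started 1 nt downstream of the main start. miR-378c had 8, 21 and 10 reads of its own. Levels of miR-378b and miR-378d are therefore uncertain, and they were not counted as members.

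Of 18 other miRNAs linked to lipid or glucose metabolism, 17 had enough reads. In TuD-miR-122 against mock, 1 was higher and 0 were lower, beside 13.7% and 4.85% of all tested arms, with a median ratio of 0.980. The one that was higher, miR-375-3p, abundant in islets of the pancreas and also on the pancreas list above, had 70, 764 and 50 reads and a ratio of 10.4 (8.10 to 13.4). In TuD-let-7 against mock, 0 were higher and 1 was lower, beside 3.63% and 4.15% of all tested arms, with a median of 0.870. The one that was lower, miR-27a-3p, studied in fat cell differentiation, had 5338, 5517 and 797 reads and a ratio of 0.422. The 4 most abundant of the list in mock were miR-21a-5p (268670 RPM), miR-29a-3p (42348 RPM), miR-26a-5p (27333 RPM) and miR-143-3p (14305 RPM), with 0 of them past the rule in either comparison. Scaled to all reads, 6 of the 17 were lower in TuD-let-7, beside 19.7% of all tested arms. Among these 6 were miR-21a-5p (0.489) and miR-26a-5p (0.458). The ratios of the 4 in TuD-miR-122 were 1.05, 1.18, 1.03 and 1.24.

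The arms whose pair of log2 ratios to mock lay nearest to that of a member, among 127 with at least 100 reads in every library, were found over these 3 libraries and describe them alone. Nearest to miR-378a-3p were miR-652-3p, miR-30c-2-3p and miR-19a-3p, at log2 distances of 0.02, 0.04 and 0.04. Nearest to the pair of miR-103-3p and miR-107-3p were miR-17-5p, miR-203-3p and miR-19a-3p, at 0.05, 0.06 and 0.17. For miR-33-5p they were miR-378b-3p, itself uncertain, miR-185-5p and miR-193a-5p, at 0.43, 0.56 and 0.62. For miR-802-5p the nearest were miR-27a-3p, miR-222-3p and miR-223-3p, at 1.56, 1.62 and 1.74, farther than for the other members. The minimum of 100 reads left out arms that were rare in any library, TuD-let-7 included, where miR-802-5p itself had 98 reads. It left out miR-802-3p, which had 24 reads there and ratios of 0.227 and 0.346. The larger distances of miR-802-5p therefore hold for the 127 arms alone.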

How the data were processed

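Small RNA libraries from liver were deposited as inserts with raw read counts, which the authors did not normalize per the files' values. Per the labels' protocols, RNA was extracted with mirVana and 18 to 30 nt were gel-purified. Inserts ran from 15 to 30 nt. Adapter removal, an aligner and a build were not given in the sources used here. There are no molecular identifiers, so PCR copies count as reads.

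Arms came from the 1174 Mir-named precursors of GENCODE mouse M21 (GRCm38). The 5′ end of an arm was the most frequent start of its untailed reads (at least 10 reads); 2 member arms below that minimum took the RefSeq start. Arms with the same first 22 nt were merged, giving 421 arms, of which 401 are non-target. A read was assigned when it started at that end and matched at least 16 nt without mismatch, with a tail of at most 5 nt. Reads that fitted several arms, 0.336% of miRNA reads, were left out, except that those of miR-378a-3p with miR-378c were kept with miR-378a-3p and those of miR-103-3p with miR-107-3p with the pair. Both exceptions, and the length rule for telling miR-103-3p from miR-107-3p, were set after the files were read.

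Ratios have exact conditional-binomial intervals, shares Clopper-Pearson intervals and levels Poisson intervals, all at 95%. No test between conditions was made. Counts of non-overlapping arm shares cover precursors with at least 100 reads of both arms in each library and 20 reads of each arm over both. Named miRNAs followed a rule: all member arms, the 3 nearest arms of each guide, and from the list of other lipid and glucose miRNAs those past the 2-fold rule and the 4 most abundant. Members, lists and rules were chosen with earlier results of these data known. Alternatives were other scalings, starts, match lengths, mismatches, singleton inserts, tail and trim definitions, a minimum of 20 reads and the other decoy library as control. The counting code was tested on simulated data. Python 3.11, numpy 2.4.6, scipy 1.17.1.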

Additional observations from a re-analysis of the deposited data

How the results depend on the processing

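In TuD-miR-122 against mock the count of member arms past the 2-fold rule was 1 under the main setting and under each of the 8 alternatives, with miR-802-3p the arm each time. In TuD-let-7 against mock it was 2 under the main setting and 7 alternatives and 3 with 1 internal mismatch allowed, where miR-802-3p was added. The arms behind a count of 2 were miR-33-5p and miR-802-5p, but miR-802-5p and miR-802-3p when scaled to all reads or to all miRNA reads. Those scalings also turned the direction of 6 of 10 level ratios in TuD-let-7 (miR-33-3p, both arms of miR-378a, miR-107-3p, miR-107-5p and the pair of miR-103-3p and miR-107-3p). Against mock, no other alternative turned the direction of a level ratio. With the other decoy library as control, miR-33-5p and miR-802-5p in TuD-miR-122 and miR-33-3p and miR-802-3p in TuD-let-7 turned. Of the level ratios recomputed, 118 stayed within the interval of the main value and 44 did not. For tailed shares these numbers were 78 and 48, for trimmed shares 77 and 49, and for ratios of arms or of miR-103-3p to miR-107-3p 35 and 4. The arm shares of Mir802 in mock and TuD-let-7 overlapped with 1 internal mismatch allowed and without inserts read once. Counting untailed reads alone as trimmed, scaling the marker and other lists to all reads, and leaving out the reads shared with miR-378c, were chosen after seeing the data. No paired analysis was possible because each group had 1 library, and no library could be left out for the same reason. Depth limits miR-33-3p and the 5p arms of Mir103-1, Mir103-2 and Mir107 most, and TuD-let-7 more than the other libraries.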
